A study of Mus musculus with 12 samples.

Results

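Atp13a4, Ptgds, Ms4a5, Spock1, Rarres1, Bag3, Smpdl3b, Dusp4, Sptlc3 and Rgs9 are 10 genes of the mouse seminal vesicle. Their transcript level differed with the genotype of Esr1, the gene of estrogen receptor alpha, when set against wild-type glands given vehicle. These genes were selected on measured values of this series. They were chosen by their array levels because the 6 arrays from knockout (aERKO) glands differed from the 3 arrays of wild-type glands given vehicle (WT-veh). Each was found through the 1 probe set that carries its symbol alone. They are 10 of 20102 genes tested and 30063 named on the array. The 4 groups held 3 arrays each, 12 in all, from seminal vesicles of male C57BL/6 mice taken at week 10. The aERKO-DES mice lacked the receptor and were injected under the skin as pups with diethylstilbestrol (DES), a synthetic estrogen, in corn oil at 2 µg a day per pup from day 1 to day 5 after birth, and the aERKO-veh mice lacked the receptor and were given corn oil. The WT-DES and WT-veh mice carried the receptor and had the same 2 treatments. The labels do not state how the knockout allele was made, whether wild-type mice were littermates, or whether each of a group's 3 samples is a mouse of its own. The p-values therefore reflect no more than the variation among these arrays, part or all of which may be technical.

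Estrogen receptor alpha is a nuclear receptor that binds estrogen and changes the transcription of genes near its binding sites, either on its own DNA element or through other factors such as AP-1. The seminal vesicle is an androgen-dependent secretory gland with an epithelium wrapped in smooth muscle, and males also make estrogen from testosterone. The 10 genes do not form a pathway. They encode membrane transport and signalling proteins (Atp13a4, Rgs9, Dusp4, Ms4a5), sphingolipid enzymes (Smpdl3b, Sptlc3), secreted and matrix proteins (Ptgds, Spock1, Rarres1) and a co-chaperone (Bag3). None lies on chromosome 10, which carries Esr1. Ptgds and Sptlc3 share chromosome 2, and the others lie on chromosomes 3, 4, 7, 8, 11, 13, 16 and 19 of GRCm38.p6.

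All values are log2 levels after RMA, a method that subtracts background, gives the probes of all arrays the same distribution and sums up the probes of a set. Esr1 was lower on all 6 aERKO arrays (6.81 to 7.09) than on all 6 WT arrays (7.55 to 7.80). Secretory markers of the seminal vesicle averaged between 12.6 and 13.1 over 12 genes on every array, close to the top of the scale. The WT-DES arrays stood apart from the other 9, with correlations across genes of 0.867 to 0.919 to arrays of other groups, against at least 0.982 within groups. The mean of 10 macrophage markers was 9.85 to 10.3 in WT-DES, against 7.56 to 7.84 in WT-veh. Control probe sets also read lower in WT-DES, with a difference of -0.357 (log2) from WT-veh for the 4 hybridization controls. On aERKO-DES array 3 these 4 also read low (11.36), inside the WT-DES range of 11.19 to 11.50. The 23 background control probe sets averaged 4.70 to 4.99 in WT-DES, against 5.25 to 5.34 in WT-veh, so the comparisons with WT-DES are given with the arrays scaled to the hybridization controls as well. In these bulk samples fewer cells of a type and less RNA per cell cannot be told apart.

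Among the signalling proteins, Atp13a4 had the largest increase with the lost receptor. It belongs to the P5 family of transport ATPases, whose best-studied members move polyamines. Atp13a4 read 7.49, 7.36 and 6.87 in aERKO-DES and 7.41, 7.85 and 7.71 in aERKO-veh, against 5.65, 5.39 and 5.65 in WT-DES and 5.95, 6.38 and 6.19 in WT-veh. The 6 aERKO arrays were high, the WT-veh arrays lower, and the WT-DES arrays lowest, with no overlap between WT-DES and WT-veh. Its level in WT-DES was only 0.69 above the background controls, and in WT-veh 0.87. Sptlc3 in WT-veh (0.89) and Rarres1 in WT-DES (0.97) were as close to background, which limits these values too. Rgs9, which speeds the switching-off of G proteins of the Gi class, read 8.27, 8.08 and 7.91 in aERKO-DES and 8.07, 8.20 and 8.16 in aERKO-veh, against 7.28, 7.12 and 7.25 in WT-DES and 7.42, 7.71 and 7.72 in WT-veh. Dusp4, a nuclear phosphatase that switches off MAP kinases, read 8.83, 8.74 and 8.70 in aERKO-DES and 8.55, 8.59 and 8.72 in aERKO-veh, against 7.95, 7.96 and 7.98 in WT-DES and 8.19, 8.39 and 8.38 in WT-veh. Both genes had the order of Atp13a4, with the aERKO groups overlapping each other and the WT groups apart. Dusp4 was the one gene of the 10 whose mean was higher in aERKO-DES (8.76 ± 0.0662, SD, n = 3) than in aERKO-veh (8.62 ± 0.0944).

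Ms4a5 ran the other way and had the largest difference from WT-veh of all genes tested, the comparison on which the genes were chosen. Between aERKO-DES and WT-DES it ranked 159 by size. It encodes a four-pass membrane protein of the family of the B cell antigen Ms4a1. Ms4a5 read 6.54, 7.42 and 6.76 in aERKO-DES and 7.28, 7.74 and 6.74 in aERKO-veh, against 10.98, 10.32 and 9.43 in WT-DES and 10.30, 9.53 and 9.68 in WT-veh. Every aERKO array lay below every WT array, and within each genotype the DES and vehicle arrays overlapped. It was also the most variable of the 10 within groups, with SDs between 0.405 (WT-veh) and 0.782 (WT-DES).

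Of the sphingolipid enzymes one was higher and one lower without the receptor. Sptlc3, a catalytic subunit of serine palmitoyltransferase, which starts sphingolipid synthesis, read 6.88, 6.52 and 6.47 in aERKO-DES and 6.69, 6.72 and 6.72 in aERKO-veh, against 6.55, 6.49 and 6.53 in WT-DES and 6.09, 6.20 and 6.29 in WT-veh. Here WT-veh alone was low, and the WT-DES arrays lay inside the range of aERKO-DES. Smpdl3b, a phosphodiesterase anchored at the cell surface that resembles acid sphingomyelinase, read 7.69, 7.65 and 7.59 in aERKO-DES and 7.66, 7.55 and 7.74 in aERKO-veh, against 7.97, 7.99 and 8.03 in WT-DES and 7.93, 8.11 and 8.0 in WT-veh. Its values split by genotype alone, with both treatments overlapping in each.

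The secreted and matrix proteins were all higher in aERKO. Ptgds, the lipocalin-type enzyme that makes prostaglandin D, read 9.13, 9.09 and 8.97 in aERKO-DES and 9.08, 9.39 and 9.33 in aERKO-veh, against 7.95, 7.60 and 8.09 in WT-DES and 8.28, 8.32 and 8.43 in WT-veh. Spock1, the proteoglycan testican of the SPARC family, read 8.18, 8.15 and 8.02 in aERKO-DES and 8.13, 8.17 and 8.15 in aERKO-veh, against 7.36, 7.08 and 7.29 in WT-DES and 7.59, 7.69 and 7.71 in WT-veh. Rarres1, named in human cells for its response to retinoic acid receptor ligands and related to the protease inhibitor latexin, read 8.17, 7.74 and 7.37 in aERKO-DES and 8.19, 8.46 and 7.99 in aERKO-veh, against 6.01, 5.62 and 5.89 in WT-DES and 6.42, 6.82 and 7.16 in WT-veh. All 3 genes again ran from the overlapping aERKO groups down to WT-veh and then WT-DES. Bag3, a co-chaperone that links Hspa chaperones to autophagy and is known from muscle under load, followed this order at a high level. It read 9.74, 9.52 and 9.63 in aERKO-DES and 9.63, 9.72 and 9.71 in aERKO-veh, against 8.98, 8.94 and 9.02 in WT-DES and 9.28, 9.15 and 9.33 in WT-veh.

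**Figure D1:**
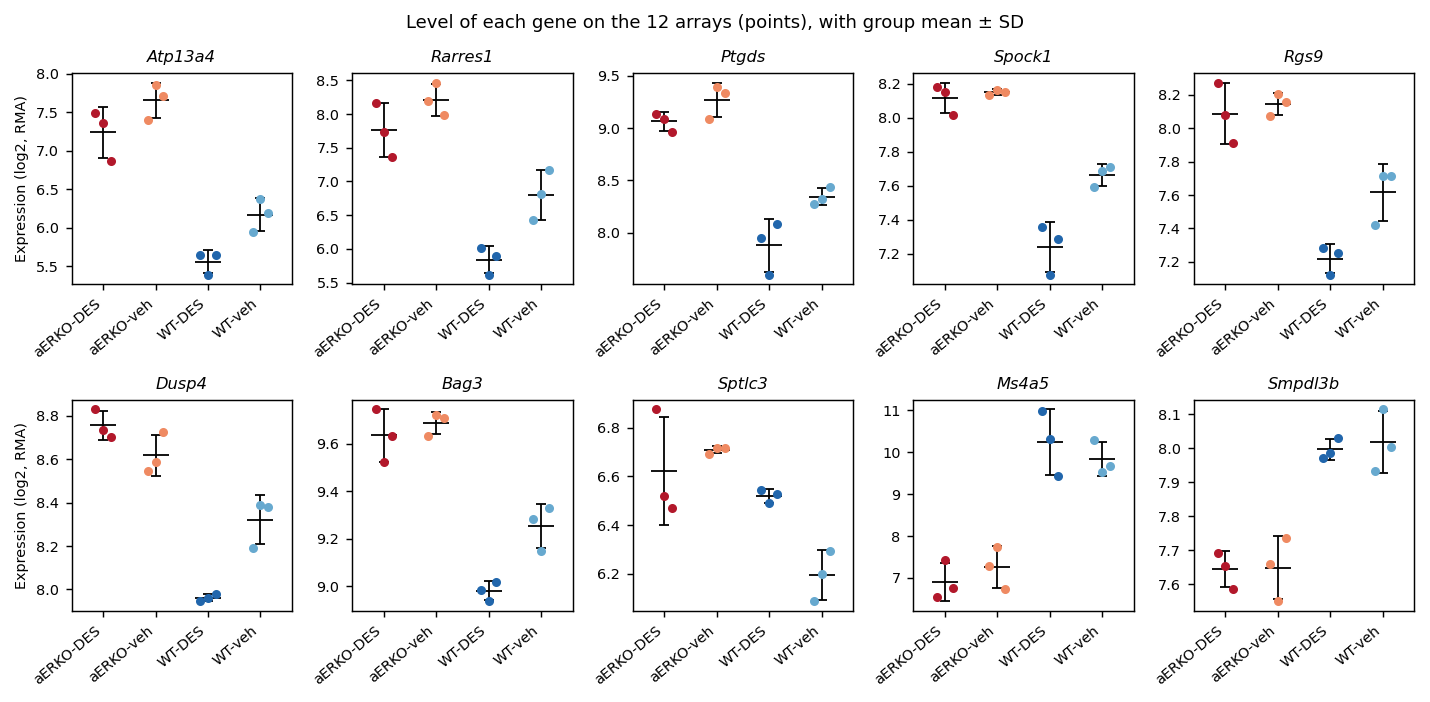
Each panel plots 1 gene, with the log2 RMA level on the vertical axis, 1 point per array and bars for the group mean ± SD (n = 3). In the first 7 panels the aERKO groups are highest and WT-DES lowest, Sptlc3 is low only in WT-veh, and Ms4a5 and Smpdl3b are low in both aERKO groups.

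The genotype difference on which the genes were picked is given here as a description, with no test. The mean of the 6 aERKO arrays minus WT-veh was -2.76 ± 0.32 (SE) for Ms4a5, 1.27 ± 0.14 for Atp13a4, 1.18 ± 0.18 for Rarres1 and 0.82 ± 0.10 for Ptgds. It was 0.50 for Rgs9, 0.47 for Sptlc3, 0.47 for Spock1, 0.41 for Bag3, -0.37 for Smpdl3b and 0.37 for Dusp4. The choice stated no threshold. All 10 had every aERKO array outside the range of WT-veh, as did 4.82% of the genes tested (969 of 20102), and by size of the difference the 10 stood between ranks 1 and 104 of these. The arrays lay above WT-veh for 8 of the 10 (1.56% of all genes) and below it for 2 (3.26%). For 7 of the 8 all WT-DES arrays also lay below WT-veh. Of the 313 genes with all aERKO arrays above WT-veh, 122 had this order (0.607% of all genes). The order shares the WT-veh arrays with the choice, and its WT-DES part depended on the scaling, as given below. Genes that were not picked have differences of the same size, such as Ankrd1 at 1.28 and Elobl at -1.14, named here after their values were seen. With the arrays scaled to the hybridization controls, 9 of the 10 still had all aERKO arrays outside the range of WT-veh.

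The promoters of the genes, higher or lower in aERKO, were searched for short motifs, among them the estrogen response element and the AP-1 site. Whether the receptor acts at any of them was not tested. RefSeq windows (GRCm38.p6) from 250 bases before to 50 bases after the start site existed for 9 of the 10 genes, 10 windows in all, and Dusp4 had none in the table used. The full estrogen response element (GGTCA and TGACC with 3 bases between them) was in 0 of the 10 windows and in 0.07% of all 32851. The nuclear receptor half-site AGGTCA was in 1 of the 10, against 16.26% of all windows, and the AP-1 site TGANTCA was in 4, those of Atp13a4, Bag3, Ptgds and Spock1, against 7.81% of all. The other motifs searched were the androgen and glucocorticoid receptor half-site (0 of 10, against 18.97% of all) and the heat shock element (0, against 0.6%). The TATA box was in 1 (13.62% of all), the CCAAT box in 4 (37.41%) and the GC box in 5 (35.66%). With 10 windows and several motifs tried, nothing is read from the AP-1 count. Both strands were searched, and no AP-1 match overlapped a half-site. A match is a description of these letters, not a binding site. The 4 windows with an AP-1 match are shown 5′ to 3′ on the gene's strand, with AP-1 matches and half-sites (TGACCT on this strand) in capitals, followed by the window of Ms4a5, the gene with the largest difference, which had neither.
Atp13a4, chr16:29544815-29545114, minus strand: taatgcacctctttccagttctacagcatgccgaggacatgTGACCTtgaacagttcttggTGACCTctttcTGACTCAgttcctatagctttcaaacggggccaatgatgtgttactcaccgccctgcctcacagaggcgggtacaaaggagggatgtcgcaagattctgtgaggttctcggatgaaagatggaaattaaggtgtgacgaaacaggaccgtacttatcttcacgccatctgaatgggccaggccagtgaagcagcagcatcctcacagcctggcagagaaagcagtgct
Bag3, chr7:128523333-128523632, plus strand: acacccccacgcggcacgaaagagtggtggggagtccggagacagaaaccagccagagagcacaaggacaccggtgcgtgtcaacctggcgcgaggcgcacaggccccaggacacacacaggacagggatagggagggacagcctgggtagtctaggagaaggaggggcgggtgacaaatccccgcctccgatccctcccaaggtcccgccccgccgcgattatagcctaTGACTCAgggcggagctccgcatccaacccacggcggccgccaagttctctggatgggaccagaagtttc
Ptgds, chr2:25469700-25469999, minus strand: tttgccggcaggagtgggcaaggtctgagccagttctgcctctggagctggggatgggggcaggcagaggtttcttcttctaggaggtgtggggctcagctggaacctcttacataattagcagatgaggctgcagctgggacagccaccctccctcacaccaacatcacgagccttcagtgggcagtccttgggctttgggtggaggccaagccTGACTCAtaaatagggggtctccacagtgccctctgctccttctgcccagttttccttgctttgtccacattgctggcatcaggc
Spock1, chr13:57908283-57908582, minus strand: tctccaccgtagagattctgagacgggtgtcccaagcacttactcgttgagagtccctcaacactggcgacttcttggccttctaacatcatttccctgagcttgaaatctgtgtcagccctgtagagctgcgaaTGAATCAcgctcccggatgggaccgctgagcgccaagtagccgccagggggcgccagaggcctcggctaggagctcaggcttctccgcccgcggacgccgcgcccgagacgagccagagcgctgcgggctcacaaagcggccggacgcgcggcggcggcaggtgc
Ms4a5, chr19:11283764-11284063, minus strand: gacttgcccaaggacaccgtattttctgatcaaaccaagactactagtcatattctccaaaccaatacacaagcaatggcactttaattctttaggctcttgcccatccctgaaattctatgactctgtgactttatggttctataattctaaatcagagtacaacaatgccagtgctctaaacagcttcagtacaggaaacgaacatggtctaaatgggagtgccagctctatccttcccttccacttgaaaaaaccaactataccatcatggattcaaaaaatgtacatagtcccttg
The Atp13a4 window holds both kinds, with half-sites at positions -209 and -189 and an AP-1 match at -178 relative to the start site. The AP-1 match lies at -20 in Bag3, -35 in Ptgds and -115 in Spock1. The second start site of Atp13a4, chr16:29541434-29541733, had neither motif.

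Whether neonatal DES moved these genes in glands without the receptor is a contrast that the choice of genes did not use, but its 6 arrays were used. The values below are therefore not independent of the choice. The median size of the difference was 0.112 (log2) for the 10 genes, against 0.057 for all genes tested. None of the 10 passed in aERKO-DES against aERKO-veh (limma adjusted p = 0.999 for each), where 0% of the 20102 genes tested were called. At an unadjusted p below 0.05 limma called 264 genes (1.31%), among them Atp13a4. The largest differences were those of Rarres1, at -0.45 (95% interval -0.92 to 0.01), Atp13a4, at -0.42 (-0.77 to -0.06), and Ms4a5, at -0.34 (-1.14 to 0.46). For Rarres1 and Atp13a4 the lowest aERKO-DES array was the third one, at 7.37 and 6.87. The intervals were narrowest for Smpdl3b (-0.16 to 0.15) and Bag3 (-0.21 to 0.11), and that of Dusp4 ran from -0.02 to 0.30. The aERKO-DES and aERKO-veh arrays overlapped for all 10, and 6.11% of all genes had no overlap, from which nothing is read about the 10.

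In wild-type glands 8 of the 10 genes differed between WT-DES and WT-veh, 7 lower and 1 higher, at a limma adjusted p below 0.05. This comparison shares its WT-veh arrays with the choice of the genes and is not independent of it. Of all genes tested 43.9% were called, 23.3% lower and 20.7% higher. Rarres1 fell by 0.96 ± 0.21 (SE, 1.95-fold, adjusted p = 0.00324) and Atp13a4 fell by 0.61 ± 0.17 (adjusted p = 0.0107). Ptgds fell by 0.47 ± 0.12 (adjusted p = 0.00722), Spock1 fell by 0.42 ± 0.08 (0.000968), Rgs9 fell by 0.40 ± 0.10 (0.00825), Dusp4 fell by 0.36 ± 0.07 (0.00200) and Bag3 fell by 0.27 ± 0.07 (0.00938). Sptlc3 rose by 0.33 ± 0.10 (adjusted p = 0.0159, or 0.0674 without WT-veh replicate 1, the highest over the settings run, where the lowest was 0.000288). Smpdl3b differed by -0.02 ± 0.07 (adjusted p = 0.818) and Ms4a5 by 0.41 ± 0.37 (adjusted p = 0.378), and neither passed. The WT groups did not overlap for the 8 called genes, 7 with WT-DES below WT-veh (35.1% of all genes) and 1 above it (25.8%), and 60.9% of all genes had no overlap.

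The 7 lower readings in WT-DES depended on how the arrays were scaled. Scaled to the hybridization controls, the median of all genes moved to 0.31, against -0.05 as deposited, and 8345 genes were higher and 350 lower, against 4152 and 4677 as deposited. With the same median on each array the counts were 3404 and 7115, and with quantile normalization 3515 and 7142. Under the hybridization controls Rarres1 was the only one of the 7 still lower (-0.60 ± 0.16, adjusted p = 0.00251). Atp13a4 then differed by -0.25, Ptgds by -0.11, Spock1 by -0.07, Rgs9 by -0.04, Dusp4 by -0.0010 and Bag3 by 0.084, and none of these 6 passed (adjusted p = 0.174 to 0.997). Sptlc3 rose by 0.68 there, and Ms4a5 passed with 0.77 ± 0.25 (adjusted p = 0.0135, against up to 0.937 in other settings). Relative to the median of all genes, which no shift of whole arrays alters, the 7 stood at -0.91 for Rarres1, -0.56 for Atp13a4, -0.42 for Ptgds, -0.38 for Spock1, -0.35 for Rgs9, -0.31 for Dusp4 and -0.22 for Bag3. Quantile normalization moved Atp13a4, close to background, to -1.61.

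**Figure D2:**
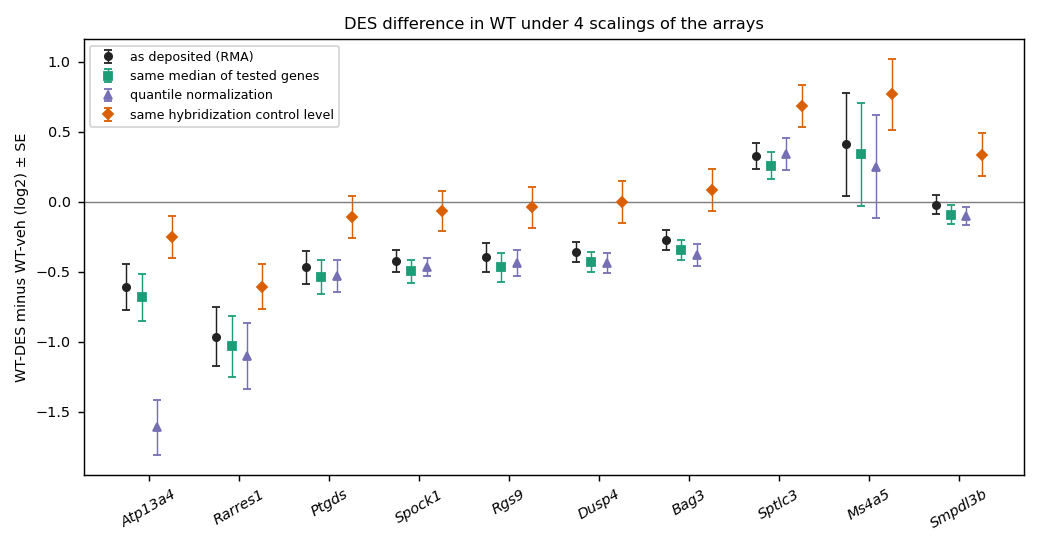
The WT-DES minus WT-veh difference (log2, ± SE) of each gene is plotted for 4 scalings of the arrays. Scaling to the hybridization controls moves all 10 genes up, and among the 7 genes at the left only Rarres1 (-0.60) keeps an adjusted p below 0.05 there.

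With DES given to both genotypes, 9 of the 10 genes differed between aERKO-DES and WT-DES, 7 higher and 2 lower, against 52.1% of all genes called (27.5% higher and 24.6% lower). The aERKO-DES arrays had been used in the choice of the genes, while the WT-DES arrays had not. Rarres1 was 3.78-fold higher in aERKO-DES (1.92 ± 0.21, SE, adjusted p = 1.65e-05), Atp13a4 3.20-fold (1.68 ± 0.17, 5.87e-06) and Ptgds 2.27-fold (1.18 ± 0.12, 6.18e-06). Spock1 was higher by 0.88, Rgs9 by 0.87, Dusp4 by 0.79 and Bag3 by 0.65. Ms4a5 was 10.1-fold lower (-3.34 ± 0.37, adjusted p = 1.62e-05), and Smpdl3b was lower by -0.35 ± 0.07 (adjusted p = 0.00143). Sptlc3 did not pass (0.10 ± 0.10, adjusted p = 0.383). The same 9 genes passed in the same direction under the hybridization controls, where the difference of Bag3 was smallest among the higher ones at 0.43. The groups did not overlap for these 9 genes, 7 higher (29.7% of all genes) and 2 lower (26.2%), against 55.9% of all genes in either direction.

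**Figure D3:**
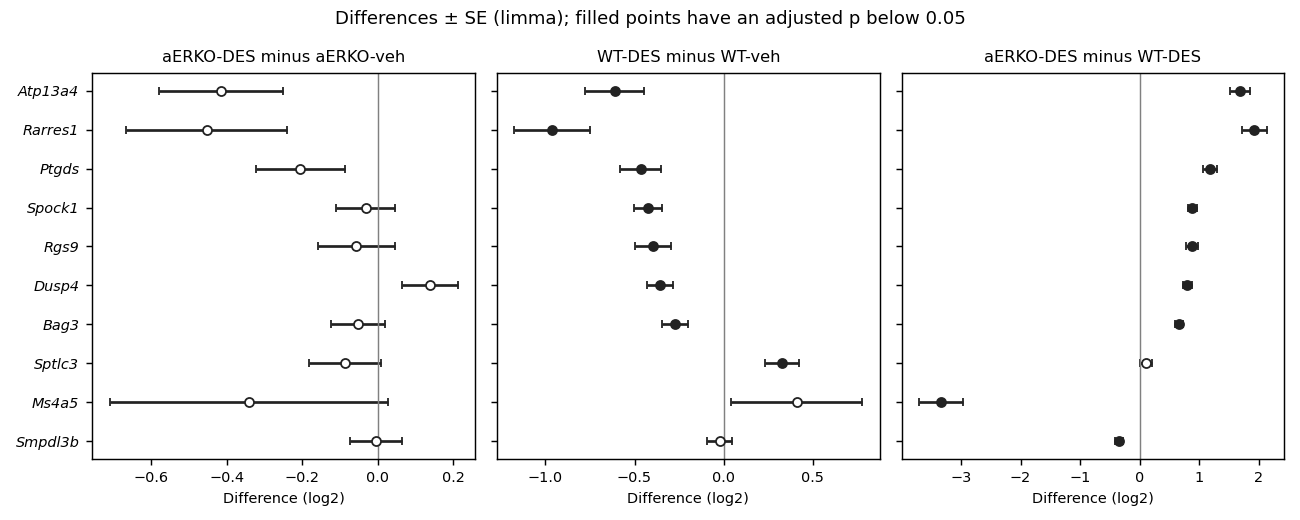
Points are log2 differences with their SE from limma in 3 comparisons, each panel with its own scale, and filled points have an adjusted p below 0.05. No point is filled for aERKO-DES minus aERKO-veh, 8 are for WT-DES minus WT-veh, and 9 are for aERKO-DES minus WT-DES.

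The response to DES itself differed between genotypes for 3 of the 10 genes, 1 with a higher difference (14.1% of all genes) and 2 with a lower one (9.16%), where 23.3% of all genes were called. This test uses all 4 groups, among them those that chose the genes. The count is near the share of all genes, and nothing is read from it about the 10. The WT response minus the aERKO response was -0.50 ± 0.10 (SE) for Dusp4 (adjusted p = 0.00480), -0.39 ± 0.11 for Spock1 (0.0235) and 0.41 ± 0.14 for Sptlc3 (0.0439). The difference was not shown for the other 7, among them Rarres1 (-0.51 ± 0.30, adjusted p = 0.224) and Atp13a4 (-0.19 ± 0.23, adjusted p = 0.549), whose means were also lower with DES in aERKO. The call of Sptlc3 held in 9 of 22 other settings and was lost on leaving out any one of 10 of the 12 arrays. That of Spock1 ended without aERKO-DES replicate 2, WT-veh replicate 2 or WT-veh replicate 3, and those of Dusp4 and Spock1 ended under the hybridization controls (adjusted p = 0.486 and 0.696). Over all settings run the adjusted p ran from 0.000678 to 0.486 for Dusp4, from 0.00256 to 0.696 for Spock1 and from 0.00267 to 0.104 for Sptlc3.

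Markers of several cell types also differed between the groups, and their part in the results was not tested. In WT-DES against WT-veh all 8 fibroblast markers tested rose (median 1.64), as did all 8 neutrophil (2.20), all 10 macrophage (2.26) and all 8 basal epithelial markers (0.52). Of the others 7 of 9 B and plasma cell markers (median 1.37), 6 of 7 T cell markers (0.82), 7 of 8 endothelial markers (0.66) and 5 of 8 luminal epithelial markers (0.34, with 2 lower) rose. Smooth muscle markers ran the other way, with 8 of 10 lower (median -0.46). The mean level of 10 smooth muscle markers was 10.79 to 11.13 in aERKO-DES and 10.79 to 11.06 in aERKO-veh, against 10.22 to 10.43 in WT-DES and 10.69 to 10.80 in WT-veh. WT-DES was lowest, as for the 7 genes highest in aERKO. In this mean the WT-veh arrays overlapped both aERKO groups. For the 7 genes the gap to WT-veh was set by their choice, so overlap cannot be compared between them and the markers. Each of the 10 markers averaged higher over all aERKO arrays than in WT-veh, by 0.09 to 0.35 (median 0.17), described with no test. Summed on the linear scale these markers ran from 26733 to 34851 over the 6 aERKO arrays, against 18548 to 21477 in WT-DES and 24888 to 27271 in WT-veh, and none of the 10 was below background. Markers of the epididymis and vas deferens, where Ptgds is known to be abundant, averaged 4.78 to 5.28 over 12 genes on all arrays, and 7 or 8 of the 12 were below background in each group. Those of the prostate and coagulating gland averaged 9.86 to 10.90 over 12 genes on all arrays, with 0 below background in each group.

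The profile of Ms4a5 was nearest to those of genes known from fat cells. The genes with the most similar profile over the 12 arrays, by the root mean square difference of mean-centred log2 levels, were Car3 (0.621), a carbonic anhydrase abundant in muscle and fat, and Fabp4 (0.705), the fatty acid carrier of adipocytes and one of the adipocyte markers used here. The SD of Ms4a5 itself over the arrays was 1.63. Car3 averaged 6.90 ± 0.127 (SD, n = 3) in aERKO-DES and 7.53 ± 0.814 in aERKO-veh, against 10.4 ± 0.110 in WT-DES and 9.63 ± 1.47 in WT-veh. The mean of 7 adipocyte markers, none below background, was 6.20 to 6.44 in aERKO-DES and 6.26 to 6.46 in aERKO-veh, against 7.20 to 7.27 in WT-DES and 7.81, 6.51 and 6.89 on the WT-veh arrays. Their linear sum was 543 to 656 over the 6 aERKO arrays, against 1203 to 1325 in WT-DES and 679 to 1887 in WT-veh.

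**Figure D4:**
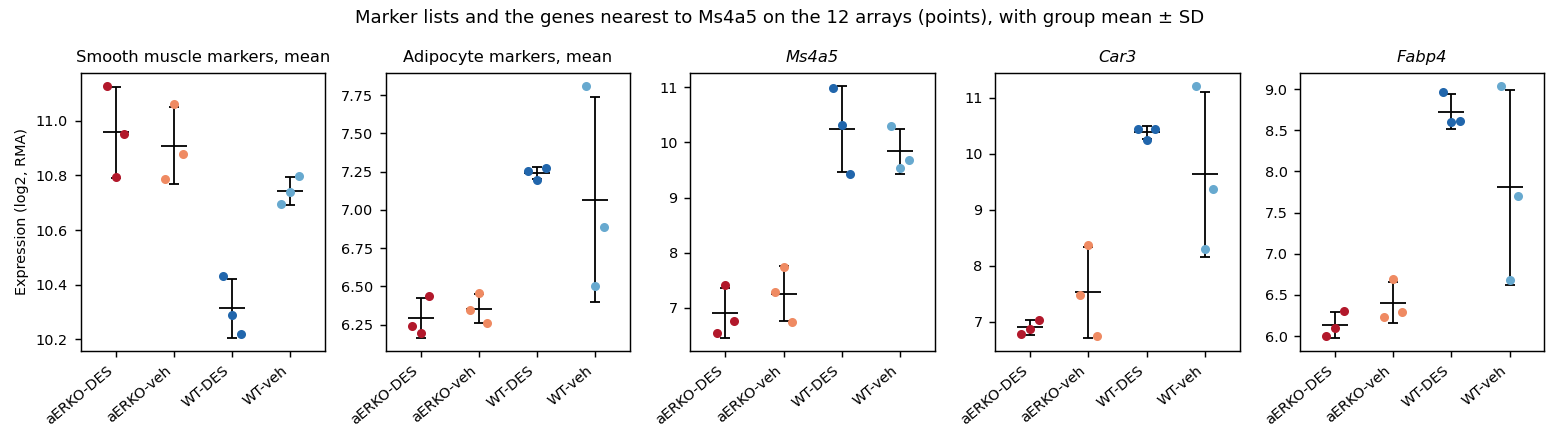
Points are single arrays and bars the group mean ± SD (n = 3), on the log2 RMA scale, for the mean of 10 smooth muscle markers, the mean of 7 adipocyte markers, Ms4a5, Car3 and Fabp4. Within WT-veh, array 1 is highest and array 2 lowest for the adipocyte markers, Ms4a5, Car3 and Fabp4 (array 1 at 7.81, 10.3, 11.2 and 9.04). In the DES groups the order of the arrays is not shared. All 3 WT-veh arrays lie above every aERKO array for Ms4a5, the difference on which it was chosen.

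Several of the 10 were each other's closest match in the same search. All 10 were chosen on a difference between the same groups of arrays, so likeness among them is partly built in. Rgs9 and Spock1 were nearest to one another (0.0710, where their own SDs over the 12 arrays were 0.410 and 0.397), and Atp13a4 and Rarres1 likewise (0.220, with SDs of 0.892 and 0.991). Susd4 was nearest to Dusp4 (0.0979), Eva1c to Bag3 (0.0939), Gdpd2 to Ptgds (0.206), Nedd4l to Sptlc3 (0.110) and Scml2 to Smpdl3b (0.0846). Gdpd2, a glycerophosphodiester phosphodiesterase gene, averaged 8.46 ± 0.230 in aERKO-DES and 8.72 ± 0.148 in aERKO-veh, against 7.49 ± 0.118 in WT-DES and 8.03 ± 0.321 in WT-veh (SD, n = 3). Tfap2b, a transcription factor gene and second to Atp13a4 in likeness to Rarres1 (0.372), averaged 8.44 ± 0.230 and 8.53 ± 0.0351 in aERKO-DES and aERKO-veh, against 6.86 ± 0.227 and 7.89 ± 0.129 in WT-DES and WT-veh.

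Relatives of the 10 genes were followed in 9 family and pathway lists. None passed between aERKO-veh and WT-veh, where 0.0249% of all genes did, or between aERKO-DES and aERKO-veh, so these counts do not separate the relatives from other genes. Ptgs2, an inducible cyclooxygenase, averaged 6.56 in aERKO-veh, against 8.70 in WT-veh, a difference of -2.14 ± 0.85 (SE) that did not pass and was larger than that of 9 of the 10 genes. With DES it was lower in aERKO-DES than in WT-DES (-3.11 ± 0.85, adjusted p = 0.00983). Among 13 other tested MS4A genes, 11 were called higher and 1 lower in WT-DES against WT-veh, and their median difference was 2.12, against a median of -0.05 over all genes. Ms4a4c rose by 3.60, Ms4a6c by 3.56 and Ms4a4a by 3.29, all genes of leukocytes, while Ms4a10, named as the one gene that fell, dropped by 0.31, and Ms4a5 did not pass. Of 6 other SPARC-family genes 4 rose and none fell (median 0.68), led by Fstl1 (1.54), Sparcl1 (0.99) and Sparc (0.94), whereas Spock1 fell as deposited. Both Atp13a1 and Atp13a2 fell, by 0.34 and 0.24, among 3 other tested ATP13A genes (median -0.24).

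The other lists held both higher and lower genes in WT-DES against WT-veh, as did all genes (20.7% higher and 23.3% lower). Of 12 other prostaglandin genes 5 rose and 2 fell (median 0.21). Hpgds, the hematopoietic enzyme that makes the same product as Ptgds, rose by 1.22 ± 0.11 (SE), Pla2g4a, which frees arachidonic acid, rose by 1.46, and Tbxas1, thromboxane synthase, rose by 0.83. Of 29 other sphingolipid enzymes 7 rose and 9 fell (median -0.10), with Sptssb, a small activating subunit of serine palmitoyltransferase, up by 1.68, Degs2, a ceramide desaturase, down by -1.38 and Acer3, a ceramidase, up by 1.33. Of 19 other retinoid and latexin-family genes 7 rose and 3 fell (median 0.14), and Aldh1a3, which makes retinoic acid, rose by 1.36, Dhrs3, a retinaldehyde reductase, by 1.04 and Stra6, a retinol transporter, by 0.77, while Rarres1 fell.

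Of 23 other genes of the list of BAG proteins, chaperones and partners 3 rose, 8 fell and 12 did not pass in WT-DES against WT-veh (median -0.15). The small heat shock protein genes Hspb6 and Hspb7 fell by 1.05 and 0.56, and Synpo2, a muscle protein gene that is no chaperone and is also among the 10 smooth muscle markers, fell by 0.65. Hspb8, the partner of Bag3, did not pass (0.21, adjusted p = 0.0912). Between aERKO-DES and WT-DES 10 of the 23 were higher and 3 lower. Of 18 other MAP kinase phosphatase and feedback genes 6 rose and 4 fell (median 0.08), with Dusp1 and Dusp6 up by 1.06 and 1.00 and Dusp7 by 0.51, while Dusp4 fell as deposited. Of 15 other RGS genes and partners 7 rose and 3 fell (median 0.10), among them Rgs16 (1.39), Rgs5 (0.95) and Rgs4 (0.89), whereas Rgs9 fell as deposited. These medians and counts describe the lists on the deposited scale, and small declines on it carry the scaling limit given above.

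**Figure D5:**
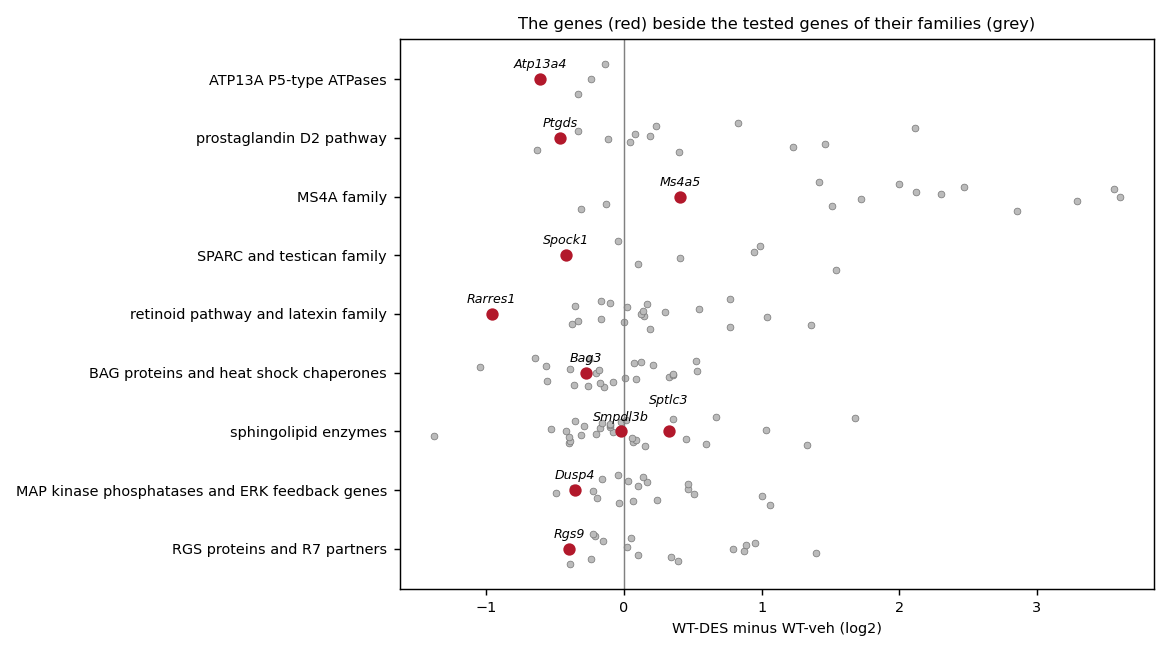
Each row is a family or pathway list and each point a tested gene, placed by its WT-DES minus WT-veh difference (log2), with the 10 genes in red and the others in grey. Ms4a5, at 0.41, lies below most of its family, and Spock1 and Rarres1 lie at the low end of theirs.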

How the data were processed

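RNA from 12 seminal vesicle samples was measured on Affymetrix arrays, from 300 ng of total RNA extracted with Trizol, per the labels' protocols. The authors deposited 1 log2 value for each probe set and array. RMA and Expression Console are named as the tools, per the submitters' processing notes, and their versions and the build were not given in the sources used here. Of 72688 probe sets 186 were array controls, and 30604 carried exactly 1 gene symbol, 2146 several and 39938 none. Symbols were updated for 1135 through the GRCm38.p6 gene table. A gene with several probe sets (429 of 30063) was represented by the one with the highest mean, and each of the 10 genes had 1. Genes above the array's median on at least 3 arrays were tested, 20102 in all, and all 10 passed.

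Tests used limma 3.58.1 in R 4.3.3 on all 12 arrays with 4 group means (8 residual and 4.33 prior degrees of freedom), two-sided, with Benjamini-Hochberg adjustment over all genes tested and a threshold of 0.05. The procedure was tested on simulated data. Exact permutation was left aside, since with 3 arrays a side its smallest p is 0.1. The 10 genes, the family and marker lists (26) and the motifs were chosen with earlier results of these data known. Named genes outside the 10 are the called list members with the largest differences, at most 3 a list, the 2 genes nearest to each by profile, and Esr1. Ms4a10, Hspb8, Ankrd1 and Elobl fall outside this rule and were picked with their values known. Each alternative differed from the main analysis in 1 step: the filter, the use of probe sets, moderation, the arrays in the fit, array weights, 3 scalings, a replicate block, a call rule that also asks for a 2-fold change, and leaving out each array in turn.
Same-numbered samples of 2 groups deviated together in some pairs only (correlations from -0.355 to 0.520), so the numbers were not taken as pairs.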

Additional observations from a re-analysis of the deposited data

Results flagged for a closer look

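The response to neonatal DES differed between WT and aERKO glands for 3 of the 10 genes by limma's test of the difference itself, which uses arrays that also served to choose the genes, and 23.3% of all genes tested were called. The count is near that share, and nothing is read from it about the 10. The WT response minus the aERKO response was -0.50 for Dusp4, whose WT-DES minus WT-veh difference was -0.36 and whose aERKO-DES minus aERKO-veh difference was 0.14. For Spock1 it was -0.39, from differences of -0.42 in WT and -0.03 in aERKO. For Sptlc3 it was 0.41, from differences of 0.33 in WT and -0.09 in aERKO. The call of Sptlc3 was lost in 13 of 22 other settings, and those of Dusp4 and Spock1 were lost with the arrays scaled to the hybridization controls.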

How the results depend on the processing

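In aERKO-DES against aERKO-veh none of the 10 genes was called in any setting tried, and over all genes the count was 0 or 1 (1 with every probe set on its own and without aERKO-DES replicate 1 or 2). In WT-DES against WT-veh 8 were called, against 3 with the arrays scaled to the hybridization controls and 0 with a fold of at least 2, and 7 or 8 with each array left out (7 without WT-veh replicate 1). Bag3 read 0.084 under the hybridization controls, against -0.27 as deposited. Between aERKO-DES and WT-DES 9 were called, 4 with a fold of at least 2, and 9 with every array left out in turn. For the difference between the responses 3 were called, 5 with array weights, 6 with quantile normalization, 1 with the hybridization controls, 0 with a fold of at least 2, and 1 to 3 with an array left out (1 without aERKO-DES replicate 2 or WT-veh replicate 2), and apart from the fold rule the cause was not tested. Over all genes that count was 4679, and 8164 with array weights, 2939 with the hybridization controls and 976 with the fold rule. The count was 10483 between aERKO-DES and WT-DES (6378 with the hybridization controls, 1093 with the fold rule) and 8829 between WT-DES and WT-veh (1029 with the fold rule). The stricter filter left 8 of the 10 genes testable, without Atp13a4 and Rarres1. With the replicate number as a block the counts of the 10 genes called were 0, 8, 9 and 3 in the 4 comparisons, the same as without it, and same-numbered samples did not deviate together in every pair. The genotype difference by which the genes were chosen kept its sign in every setting for each gene. For Smpdl3b it was -0.30 under the hybridization controls, against -0.37 as deposited. The number of arrays limits the precision, as does a level close to background for Atp13a4 in WT, Rarres1 in WT-DES and Sptlc3 in WT-veh.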
